A study of Mus musculus with 4 samples.

Results

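The Hoxa, Hoxb and Hoxc clusters are 3 runs of homeobox genes on mouse chromosomes 6, 11 and 15, and the contacts of their DNA were measured by Hi-C in male mouse embryonic stem cells (mESCs). The 29 member genes were taken by name, 10 from Hoxa, 10 from Hoxb and 9 from Hoxc, of 22380 protein-coding genes in the annotation used. Their gene bodies overlapped 12 of the 66382 bins of 40 kb into which the genome (mm9) was divided. The rule used gene names only.

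Hox proteins are transcription factors that give body regions their identity along the head-to-tail axis. The genes of a cluster are ordered along the chromosome as they are used along the body: low-numbered, anterior genes lie at one end and high-numbered, posterior genes at the other. In embryonic stem cells Hox clusters are mostly silent, rich in CpG islands and covered by Polycomb proteins, and in embryos they switch on from the anterior end. A topologically associated domain (TAD) is a stretch of chromosome whose parts meet each other more often than they meet its surroundings, and CTCF is the DNA-binding protein most often found at the boundaries between such domains.

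The study compared WT N3 male mESCs, grown in 2i medium (with inhibitors that hold the cells in a naive state), with Firre KO male mESCs, grown in 2i medium on irradiated feeder fibroblasts that were depleted before use. Firre is a long non-coding RNA gene on chromosome X. Each group had 2 libraries, which the study made as technical duplicates, and each group was deposited as 1 pooled matrix, so that no replicate error could be measured and no test was run. Genotype, cell line, culture and library preparation cannot be told apart here, and every interval below is a 95% interval that covers counting error only.

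The values are signals, that is read pairs after iterative correction, and the whole read pairs behind them were recovered: 65611035 in WT and 46635652 in the other matrix. Pairs between chromosomes made up 16.1% of the first and 35.6% of the second. The 40 kb bin that lies wholly inside the Firre gene (chrX:47920001-47960000, mm9) held 1550 WT read pairs within chromosome X, and the matrix labelled Firre KO held 1144 there, 0.832 times the WT share of chromosome X pairs. A deletion of the whole gene in all cells would leave that bin without reads, so the matrix is called the KO-labelled matrix here. Its chromosome X pairs, relative to autosomal pairs, were 1.64 times those of WT, although both groups are labelled male. The number of X chromosomes in the cells was not tested. What part these values play in any difference below was not tested either.

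The Hoxa span covered 4 bins (chr6:52080001-52240000), the Hoxb span 5 bins (chr11:96040001-96240000) and the Hoxc span 4 bins (chr15:102720001-102880000), and all 13 bins passed the filter of both matrices. Hoxa runs with its posterior genes at the higher coordinate, Hoxb and Hoxc with theirs at the lower one. The Hoxc span lies 0.64 Mb from the end of chromosome 15, so that its anterior flank is cut short. Genes that start in the same bin share every value. Hoxa2, which patterns the neck arches and hindbrain, started alone in the first Hoxa bin. Hoxa4 and Hoxa5, a gene needed for the airways, shared the next bin. Hoxa3, Hoxa6, Hoxa7, Hoxa9, Hoxa10 and Hoxa11 started in the third, which thus holds genes from the neck region to the forelimb and uterus. Hoxa13, a gene of digits and urogenital tract, started alone in the last. In Hoxb, Hoxb1 and Hoxb2 (hindbrain) shared a bin, as did Hoxb3, Hoxb4 and Hoxb5 and, farther on, Hoxb6, Hoxb7, Hoxb8 and Hoxb9 (trunk). One bin without a member followed, and then Hoxb13, a tail and prostate gene. In Hoxc, Hoxc4 and Hoxc5 shared a bin, then Hoxc6, Hoxc8 and Hoxc9 (chest level), then Hoxc10, Hoxc11 and Hoxc12 (lumbar and hindlimb level), and Hoxc13, needed for hair and nails, started alone. Hoxa3 has 2 overlapping gene models in the annotation, which were merged. The merged body runs from the first to the third Hoxa bin, and the values given for Hoxa3 are those of the bin of its start.

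The DNA of these bins stood out by its CpG content. The ratio of observed to expected CpG dinucleotides, which is low in most mammalian DNA because methylated CpG is lost over time, had a median of 0.179 over 59855 autosomal bins. It was 0.51 in the bin of Hoxa7 to Hoxa11 (99.99th percentile), 0.43 in that of Hoxa4 and Hoxa5, 0.416 in that of Hoxb6 to Hoxb9 and 0.389 in that of Hoxc10 to Hoxc12. Of the 13 bins, 11 lay above the 90th percentile. The exceptions were the Hoxb13 bin (0.258, 89.9th percentile) and the memberless bin beside it (0.245, 85.9th percentile). All 13 bins also exceeded the median G+C content of 41.4%, from 43.7% in the Hoxc13 bin to 51.4% in the bin of Hoxa7 to Hoxa11. HindIII, the enzyme that cut the chromatin, had 59 sites in Hoxa, 60 in Hoxb and 47 in Hoxc, with medians of 52 for windows of 4 bins and 65 for windows of 5. The Hoxa13 bin, the memberless Hoxb bin and the bin of Hoxc6, Hoxc8 and Hoxc9 each held 8 sites, beside a median of 13 per bin.

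All 13 bins were searched for CTCF core letters. The 12-letter CTCF core consensus, searched on both strands, was met once in the 3 spans, in the bin of Hoxb6 to Hoxb9; 17.1% of autosomal bins hold a match. A looser form, CCNNNAGGNGGC, in which N is any base, was chosen after that count was seen, and 54.2% of autosomal bins hold it. It fixes G at 1 letter where the consensus allows A or G, so that it does not include every match of the consensus. The bin of Hoxa7 to Hoxa11 held 5 such matches, a number reached by 2.16% of bins, and the bin of Hoxb6 to Hoxb9 held 4, reached by 4.88%. No match lay in the bins of Hoxa2, of Hoxa13, of Hoxb13, of Hoxc4 and Hoxc5, or of Hoxc10 to Hoxc12, and the Hoxc13 bin held 1. Hoxa held 6 in all (reached by 25.8% of windows of 4 bins), Hoxb 9 (reached by 16.2% of windows of 5 bins) and Hoxc 2 (reached by 76.0% of windows of 4 bins). A match is a description of the letters and not evidence of binding. The matches of the 2 bins that held most are shown 5′ to 3′ along the strand that carries the motif, in mm9, with the motif in capitals.
Hoxa7 intron, chr6:52169083-52169112, plus strand: gcataaggaCCCTAAGGCGGCaatatccgg
Hoxa11 untranslated region, chr6:52192823-52192852, minus strand: gacagttaaCCAAAAGGTGGCtgtgaaaag
Hoxa11 untranslated region, chr6:52193006-52193035, minus strand: cctgccaaaCCCTAAGGAGGCcacccgctc
Hoxa11 untranslated region near its start, chr6:52195974-52196003, minus strand: tgttgcttcCCCTGAGGTGGCtacaaagaa
Beyond Hoxa11 toward Hoxa13, chr6:52199311-52199340, plus strand: cgcccggagCCCTAAGGCGGCtaatgcaag
Between Hoxb13 and Hoxb9, 12.2 kb from Hoxb9, chr11:96120539-96120568, plus strand: agtgtgtctCCCACAGGAGGCccagaactc
Between Hoxb13 and Hoxb9, 9.7 kb from Hoxb9, chr11:96123058-96123087, minus strand: cgcgaccgaCCTCTAGGCGGCgccctggcg
Between Hoxb13 and Hoxb9, 5.58 kb from Hoxb9 (full consensus), chr11:96127180-96127209, minus strand: agccctgtcCCACTAGGGGGCcctagaagg
Hoxb7 untranslated region, chr11:96147499-96147528, minus strand: gctcttctcCCAAGAGGAGGCgagcctggc
Along the chromosome, 2 of the 5 Hoxa matches have the strand that runs toward the posterior end and 3 the strand toward the anterior end, whereas 3 of the 4 Hoxb matches run toward the posterior end.

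Contacts inside each cluster came first. They are given as observed over expected, the summed signal of a set of bin pairs divided by the sum of the chromosome's mean signals at the same distances, so that 1 is the chromosome's average. Over all pairs of bins of the Hoxa span the value was 0.847 in WT (0.796 to 0.899, 1091 read pairs) and 0.791 in the KO-labelled matrix (0.727 to 0.859, 588 read pairs). Hoxb gave 0.882 (0.826 to 0.942) and 0.912 (0.833 to 0.996), and Hoxc 1.05 (0.976 to 1.14) and 0.971 (0.872 to 1.08). Hoxa and Hoxb thus met themselves less often than the average stretch of their chromosomes, at the 15.9th and 21.6th percentiles in WT of all autosomal windows with the same number of bins, while Hoxc lay at the 68.0th. The matrices differed by a log2 ratio of -0.10 at Hoxa (-0.25 to 0.05), 0.05 at Hoxb (-0.11 to 0.20) and -0.12 at Hoxc (-0.30 to 0.07), and each interval included 0.

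The average hid a split within Hoxa. The Hoxa2 bin met the bin of Hoxa4 and Hoxa5 at 1.57 in WT (1.44 to 1.72) and 1.54 in the KO-labelled matrix (1.36 to 1.74). From there on the neighbours met less than average. Between the bin of Hoxa4 and Hoxa5 and that of Hoxa7 to Hoxa11 the value was 0.653 in WT and 0.564 in the KO-labelled matrix, and between the latter bin and Hoxa13 it was 0.716 and 0.662. Hoxa13 met the anterior genes least: with Hoxa2 it gave 0.482 in WT (37 read pairs) and 0.273 in the KO-labelled matrix (11 read pairs), and with the bin of Hoxa4 and Hoxa5 0.38 and 0.315.

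Of the 22 bin pairs inside the 3 clusters none differed between the matrices beyond its counting interval. Single bin pairs held from 11 to 478 read pairs in a matrix, and no such count was made over all autosomal bin pairs. Over whole clusters the log2 ratios lay at the 33.0th percentile of autosomal windows for Hoxa, 58.4th for Hoxb and 30.1st for Hoxc. The end bins of Hoxb, those of Hoxb13 and of Hoxb1 and Hoxb2, met at 0.453 in WT (0.312 to 0.636) and 0.702 in the KO-labelled matrix (0.454 to 1.04). The bins of Hoxb1 to Hoxb5 met at 1.27 in WT and 1.15 in the KO-labelled matrix. The Hoxb13 bin met its memberless neighbour at 1.14 and 1.11, but the bin of Hoxb3 to Hoxb5 at only 0.391 in WT (0.28 to 0.533, 40 read pairs) and 0.583 in the KO-labelled matrix (0.396 to 0.828, 31 read pairs), intervals that overlap. In Hoxc the bins of Hoxc4 to Hoxc9 met at 1.40 and 1.26, and Hoxc13 met the bin of Hoxc4 and Hoxc5 at 0.693 and 0.643.

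Local insulation was then measured with the settings of the study. The insulation score is the log2 of the mean signal in a 480 kb square that spans a bin, over the chromosome's mean; a low score means that few contacts cross the bin. A boundary is called where the smoothed slope of the score crosses 0, at or a few bins from a local minimum, and its strength is taken from the slope of the score on both sides, so that a sharper dip has a higher value. Boundaries were held by 3.73% of autosomal bins in WT and 3.46% in the KO-labelled matrix, with median strengths of 1.11 and 1.78.

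Hoxa contained a boundary in both matrices, and it was the only cluster of the 3 that did. In WT it lay in the bin of Hoxa7 to Hoxa11, with a strength of 1.76 (79.4th percentile of WT boundaries) and a score of -0.75. In the KO-labelled matrix it lay 1 bin nearer the anterior end, in the bin of Hoxa4 and Hoxa5, with a strength of 2.26 (64.5th percentile) and a score of -0.83. The scores of these neighbouring bins differed by less than their standard errors (0.038 and 0.039 in the KO-labelled matrix, 0.028 each in WT), and by the plain mean the bin of Hoxa7 to Hoxa11 was lowest in both matrices. The 4 Hoxa bins scored between -0.75 and -0.64 in WT and between -0.83 and -0.75 in the KO-labelled matrix. The lowest score differed by -0.07 (-0.17 to 0.02), beside a median difference of -0.08 over 57654 windows of 4 bins. The size of the square mattered here: it was -0.21 with a 240 kb square (-0.34 to -0.08) and 0.025 with a 960 kb square (-0.04 to 0.09). A next boundary lay beyond the posterior end, within Jazf1, a zinc finger gene: 760 kb out in WT (strength 1.32, 60.4th percentile) and 720 kb out in the KO-labelled matrix (1.96, 55.9th percentile).

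Hoxb and the DNA beside it were less insulated in the KO-labelled matrix than in WT. The Hoxb13 bin scored -0.79 in WT and -0.25 in the KO-labelled matrix, the bin of Hoxb6 to Hoxb9 -0.67 and 0.02, the bin of Hoxb3 to Hoxb5 -0.53 and 0.22, and that of Hoxb1 and Hoxb2 -0.36 and 0.44. Every bin was higher in the KO-labelled matrix, by 0.54 (0.44 to 0.63) at Hoxb13 to 0.80 (0.70 to 0.90) at Hoxb1 and Hoxb2. With the plain mean of the square in place of the interquartile mean the differences were smaller, from 0.37 at Hoxb13 to 0.58 at Hoxb3, Hoxb4 and Hoxb5. The change of the lowest score, 0.54, lay at the 95.3rd percentile of 57466 autosomal windows of 5 bins, whose median change was -0.10. The rise was not confined to the cluster. Counted from its middle, with the anterior side negative, scores were 0.12 in WT and 0.86 in the KO-labelled matrix at -200 kb. They were -0.33 and -0.08 at 400 kb, and went the other way at -720 kb, with -0.81 and -1.09. In WT a boundary of strength 1.02 (44.7th percentile) lay 40 kb beyond Hoxb13, in Ttll6, a tubulin-modifying enzyme gene, while the lowest WT score on that side was in the Hoxb13 bin itself. In the KO-labelled matrix the nearest one on that side lay 200 kb out, in Igf2bp1, an RNA-binding protein gene, with a strength of 0.982 (23.1st percentile) and a score of -0.19, while the lowest score on that side, -0.32, was 80 kb out; a faint one (0.13, 1.09th percentile) lay at Phb. On the anterior side the boundary was at Sp2 and Sp6 in WT (strength 1.13, 50.9th percentile, score -0.81) and 80 kb farther out, at Osbpl7 and Tbx21, in the KO-labelled matrix (strength 1.98, 56.7th percentile, score -1.07).

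Hoxc held no boundary, and its 4 bins sat near 0: -0.09 to -0.02 in WT and -0.28 to -0.17 in the KO-labelled matrix. The lowest score fell by 0.19 (interval of the difference -0.27 to -0.11), at the 41.2nd percentile of windows. With a 960 kb square, which reaches farther into the flanks, the fall was 0.82 (interval of the difference -0.89 to -0.74). The posterior flank of Hoxc showed far more. In WT a boundary of strength 2.16 (90.9th percentile) and score -1.21 lay 720 kb beyond the cluster, at Csad and Zfp740. In the KO-labelled matrix it lay 760 kb out, at Spryd3, Igfbp6 and Soat2, with a strength of 4.97 (96.3rd percentile) and a score of -3.52. Plain means gave scores of -0.68 and -1.81 at these boundaries. Hoxd, the fourth Hox cluster, had a boundary inside it in both matrices as Hoxa did, with strengths of 1.46 and 2.57 (67.3rd and 71.4th percentiles).

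**Figure D1:**
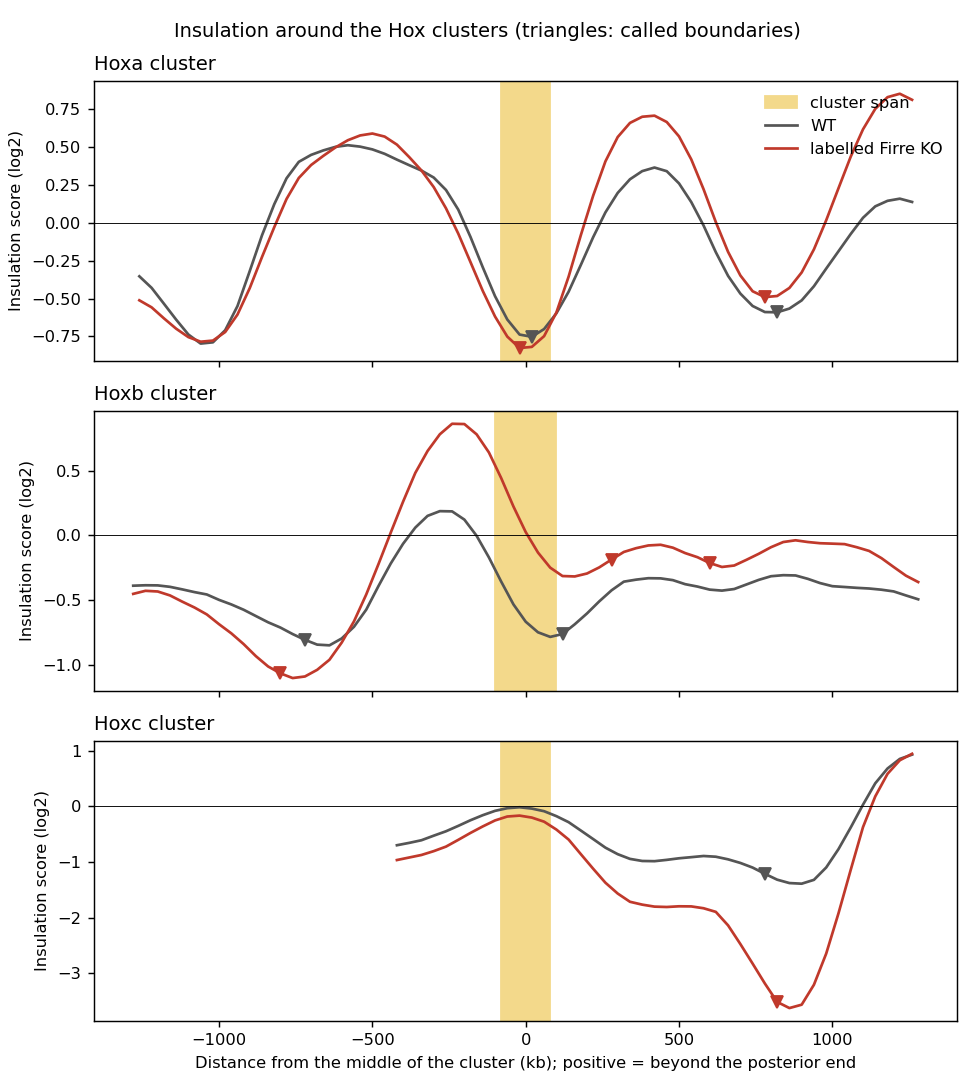
Insulation score (log2, y axis) of 40 kb bins against the distance in kb from the middle of each cluster, turned so that positive distances lie beyond the posterior end; grey is WT, red the KO-labelled matrix, the band marks the cluster and triangles mark boundaries called within 1 Mb of it. Hoxa sits in a dip in both matrices. The whole Hoxb cluster is higher in the KO-labelled matrix (-0.25 to 0.44, against -0.79 to -0.36 in WT), as is the DNA beside it on both sides. The Hoxc posterior flank falls to -3.52 at its boundary.

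Which flank a gene's bin prefers shows how a cluster sits between its neighbouring domains. For each bin, observed over expected contacts with the 1 Mb beyond the posterior end were divided by those with the 1 Mb beyond the anterior end, and the log2 of this ratio is called the flank preference; above 0 the bin leans to the posterior flank. Hoxa changed flank between its last 2 bins. Hoxa2 had a preference of -1.20 in WT (-1.39 to -1.01) and -1.67 in the KO-labelled matrix (-1.92 to -1.43). Hoxa4 and Hoxa5 had -1.70 and -2.21, and Hoxa3, Hoxa6, Hoxa7, Hoxa9, Hoxa10 and Hoxa11 -0.90 and -0.72. Hoxa13 had 1.37 in WT (1.17 to 1.56) and 1.66 in the KO-labelled matrix (1.40 to 1.93), from 1156 WT read pairs with the posterior flank and 285 with the anterior one. Hoxa13 thus leaned to the opposite flank from every other Hoxa bin in both matrices. The lean of Hoxa2, Hoxa4 and Hoxa5 to the anterior flank was stronger in the KO-labelled matrix, by -0.47 (-0.79 to -0.16) for Hoxa2 and -0.51 (-0.79 to -0.23) for Hoxa4 and Hoxa5.

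Hoxb changed flank too, but its turn was blunted in the KO-labelled matrix. Hoxb13 had a preference of 0.94 in WT (0.70 to 1.17) and 0.15 in the KO-labelled matrix (-0.08 to 0.38). The memberless bin next to it had 0.89 and -0.30. The other genes leaned to the anterior flank in both: Hoxb6, Hoxb7, Hoxb8 and Hoxb9 by -1.43 and -1.42, Hoxb3, Hoxb4 and Hoxb5 by -2.06 and -1.99, and Hoxb1 and Hoxb2 by -1.57 and -1.34. The difference between the matrices was -0.78 for Hoxb13 (-1.11 to -0.45) and -1.20 for the memberless bin (-1.62 to -0.78), while the intervals of the other 3 bins included 0. At Hoxb13 it came from the anterior side: contacts with that flank were at 0.681 of expectation in WT (290 read pairs) and 1.15 in the KO-labelled matrix (286 read pairs), while contacts with the posterior flank were at 1.30 and 1.28.

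Hoxc turned as well in WT. Hoxc13 had a preference of 0.45 in WT (0.28 to 0.63) and 0.08 in the KO-labelled matrix (-0.16 to 0.32), a difference of -0.37 (-0.67 to -0.08). Hoxc10, Hoxc11 and Hoxc12 had -0.22 and -0.21, Hoxc6, Hoxc8 and Hoxc9 -1.11 and -1.19, and Hoxc4 and Hoxc5 -0.83 and -1.13. The order from anterior to posterior genes was therefore the same in kind at all 3 clusters in WT: the bin of the highest-numbered gene leaned to the posterior flank and the bins of the low-numbered genes to the anterior one.

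The step from the anterior-end bin to the posterior-end bin was compared with that of every autosomal window of the same number of bins. At Hoxa it was 2.56 in WT (2.29 to 2.84) and 3.33 in the KO-labelled matrix (2.97 to 3.70), larger in size than in all but the top of the windows (99.3rd and 99.1st percentiles; medians 0.496 and 0.589). At Hoxb it was 2.51 in WT (98.7th percentile) and 1.49 in the KO-labelled matrix (83.3rd percentile). Hoxc had 1.28 and 1.21 (90.2nd and 82.3rd percentiles), and the Hoxd cluster 1.65 and 2.07. The intervals of the matrices did not overlap at Hoxa, where the step was larger in the KO-labelled matrix, nor at Hoxb, where it was smaller (2.16 to 2.85 in WT and 1.10 to 1.88), and they overlapped at Hoxc. Of the 13 bins, 5 differed in flank preference between the matrices beyond their counting intervals, and no such count was made over all autosomal bins. Nor was the change of the step placed among autosomal windows, so that how common such differences are cannot be said.

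**Figure D2:**
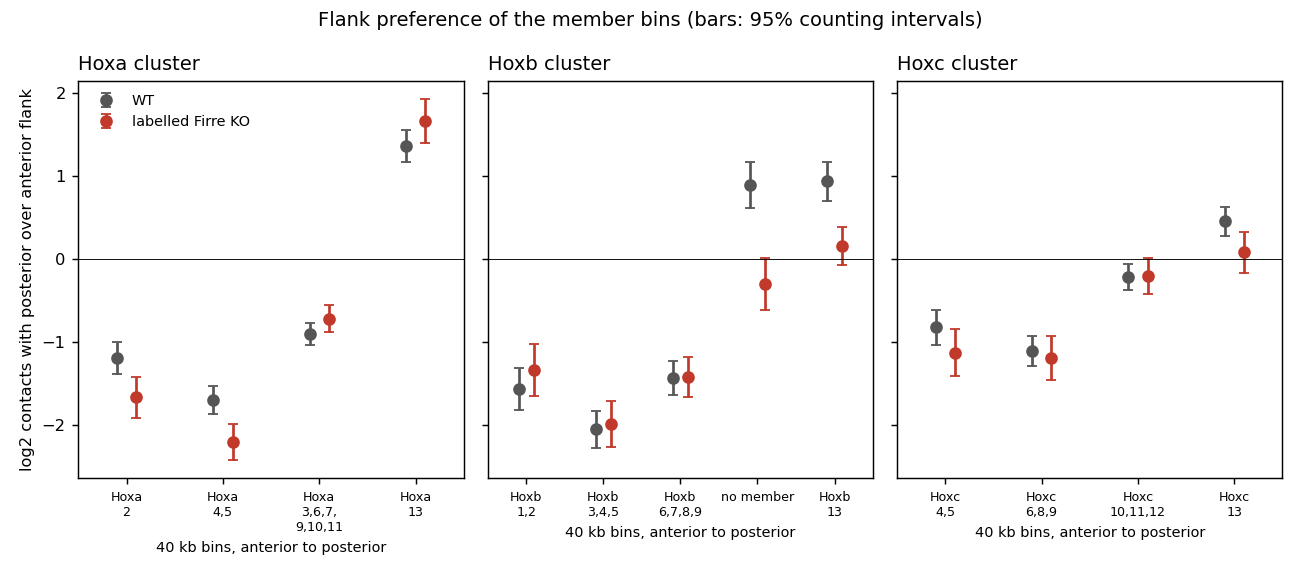
Flank preference (log2 of contacts with the posterior over the anterior 1 Mb flank, y axis) of each 40 kb bin, ordered from anterior to posterior genes, in WT (grey) and the KO-labelled matrix (red); bars are 95% counting intervals. Hoxa13 stands above 1 in both matrices, whereas Hoxb13 drops from 0.94 in WT to 0.15.

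The flanks were also split by distance, for whole clusters and not for single bins. The Hoxb span met the DNA 200 to 600 kb beyond its anterior end at 1.84 times expectation in WT (1.694 to 1.999, 1553 read pairs) and 2.61 times in the KO-labelled matrix (2.40 to 2.84, 1195 read pairs), a log2 ratio of 0.50 (0.34 to 0.67) at the 91.6th percentile of windows and flanks. That stretch holds Skap1, a T cell adaptor gene, and Cbx1, a heterochromatin protein gene; these names were picked once the values were known. The nearest 200 kb on that side differed by 0.08 (-0.06 to 0.22), and the 3 posterior steps by -0.04, 0.03 and 0.00, with intervals that included 0.

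At Hoxc the difference was on the posterior side and grew with distance. The first 200 kb gave 1.46 in WT and 1.38 in the KO-labelled matrix. The next 400 kb gave 0.661 (408 read pairs) and 0.423 (161 read pairs), a log2 ratio of -0.64 (-0.92 to -0.36) at the 11.9th percentile. From 600 to 1000 kb, across the boundary at Soat2, the values were 0.467 (0.391 to 0.553, 151 read pairs) and 0.219 (0.161 to 0.292, 51 read pairs), a log2 ratio of -1.09 (-1.57 to -0.61) at the 9.48th percentile. The anterior side of Hoxc differed by -0.10 and -0.15, with intervals that included 0.

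Of the 6 steps around Hoxa, averaged over their length, the 200 kb just beyond Hoxa13 was below expectation, at 0.665 in WT and 0.611 in the KO-labelled matrix, and the others were above it. Its contacts with the 200 kb beyond Hoxa2 were 1.15 (1.10 to 1.21) and 1.47 (1.38 to 1.56), a log2 ratio of 0.35 (0.23 to 0.46) at the 92.5th percentile. A finer profile, by distance from the middle of Hoxa with the anterior side negative, was uneven. At -100 kb it gave 1.14 in WT and 0.982 in the KO-labelled matrix. At -300 kb it gave 1.24 and 2.26, and at -460 kb 1.36 and 0.897. The anterior step of 200 to 600 kb thus averaged a rise and a fall, with a log2 ratio of 0.11 (-0.01 to 0.23). The highest of the 6 Hoxa steps was 600 to 1000 kb beyond the anterior end, at 1.93 and 2.24.

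**Figure D3:**
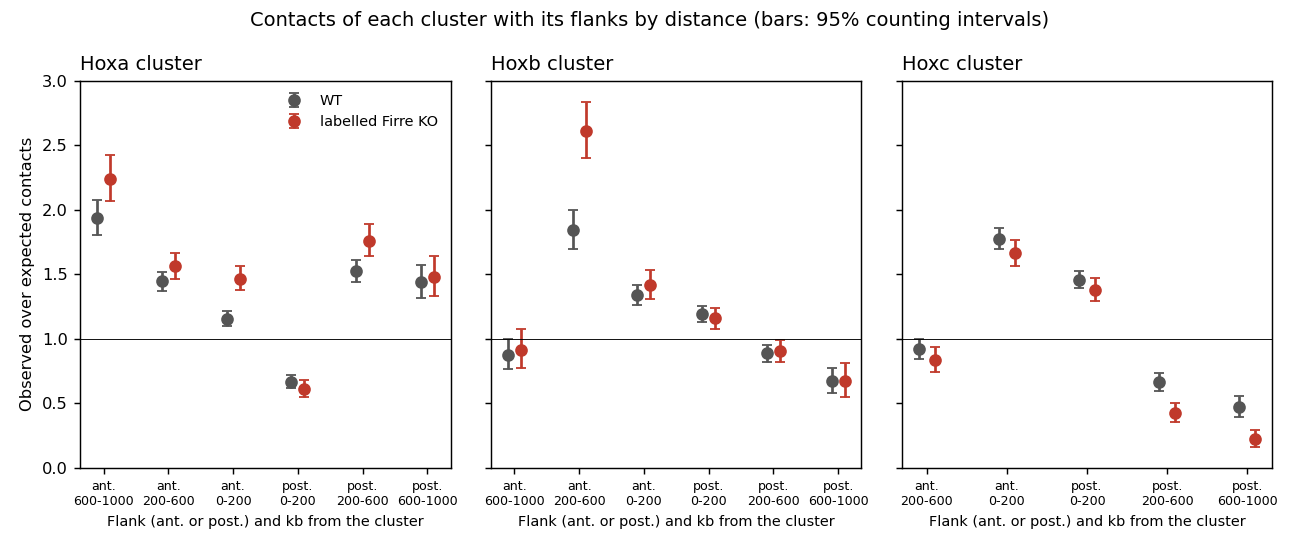
Observed over expected contacts (y axis) of each cluster with steps of its anterior (ant.) and posterior (post.) flank, labelled by distance in kb, in WT (grey) and the KO-labelled matrix (red); bars are 95% counting intervals and the line at 1 is the chromosome's average at that distance. The bars of the matrices do not overlap at the anterior 0 to 200 kb (1.15 and 1.47) and posterior 200 to 600 kb (1.52 and 1.76) of Hoxa, the anterior 200 to 600 kb of Hoxb (1.84 and 2.61), and the posterior 200 to 600 kb (0.661 and 0.423) and 600 to 1000 kb (0.467 and 0.219) of Hoxc. In that order, their log2 ratios lay at the 92.5th, 72.5th, 91.6th, 11.9th and 9.48th percentiles of autosomal windows and flanks. Each step is an average, and the anterior 200 to 600 kb of Hoxa holds a rise and a fall that average to a log2 ratio of 0.11.

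All 3 clusters lay on the gene-dense side of their chromosome. The first principal component of the contact correlation in 200 kb windows, turned to be positive with gene density and divided by its standard deviation, is a measure of the open (A) against the closed (B) compartment. Hoxa had 1.53 in WT and 1.94 in the KO-labelled matrix (92.6th and 97.9th percentiles of chromosome 6), Hoxb 1.16 and 1.12 (80.3rd and 76.8th of chromosome 11), and Hoxc 1.29 and 0.556 (85.3rd and 67.3rd of chromosome 15). In 400 kb windows Hoxc had 1.31 and 0.92 (87.6th and 78.5th percentiles). The component correlated with gene density at r = 0.335 and 0.286 on chromosome 6, so that its meaning there is weaker than on chromosome 15 (0.631 and 0.424) or 11 (0.55 and 0.447).

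Few of the clusters' contacts reached far along the chromosome. Contacts beyond 2 Mb made up 29.5% of the within-chromosome signal of Hoxa in WT (28.7 to 30.3) and 19.9% in the KO-labelled matrix (18.97 to 20.8), where the chromosome's average at the same positions would give 40.04% and 36.4%. Hoxb had 24.2% and 16.2% (average 32.5% and 29.7%), and Hoxc 24.9% and 25.9% (29.7% and 26.6%). The far share was thus below the chromosome's average in each case, except that the interval for Hoxc in the KO-labelled matrix (24.6 to 27.2) included it. Hoxb lay at the 1.74th percentile of windows in WT and the 0.664th in the KO-labelled matrix. The change of -9.65 percentage points at Hoxa lay at the 10.7th percentile of changes, whose median was -3.27, and that of Hoxc was 1.03 points, at the 77.7th percentile. The Hoxc intervals overlapped, and without correction its shares were 22.8% in WT and 22.7% in the KO-labelled matrix.

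Far contacts with other developmental genes were examined because genes covered by Polycomb proteins can meet over long distances. The list named 82 transcription factor and signalling genes, of which 37 lay beyond 2 Mb on a cluster's chromosome, in 33 separate windows of 3 bins. In WT, 3 of the 33 windows reached an observed over expected value of 2, beside 9.05% of 2353 windows at the starts of all protein-coding genes. In the KO-labelled matrix 5 of the 33 did so, beside 11.9%. With 118 and 69 read pairs in all windows together, most windows held under 10. All listed windows combined stood at 0.948 in WT (0.77 to 1.15), against 0.891 over all gene starts, and at 1.09 in the KO-labelled matrix (0.829 to 1.40), against 0.745. Relative to all gene starts the change was 0.455 (log2, -0.01 to 0.92). Beyond 5 Mb for listed windows and all gene starts alike, that change was 0.30 (-0.21 to 0.82). With windows of 1 bin the values were 1.07 in WT, against 0.922, and 0.899 in the KO-labelled matrix, against 0.774. The direction between the matrices thus turned, and the change relative to all gene starts was 0.004 (-0.82 to 0.83).

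Hoxa came first. Its 11 listed windows stood at 0.815 in WT (0.536 to 1.19, 32 read pairs), against 0.827 at all gene starts of chromosome 6, and at 1.68 in the KO-labelled matrix (1.07 to 2.50, 29 read pairs), against 0.653. Relative to all gene starts the log2 ratio was -0.02 in WT and 1.36 in the KO-labelled matrix (0.77 to 1.95), and its change was 1.38 (0.58 to 2.19). Against gene starts beyond 5 Mb only, that change was 1.21 (0.40 to 2.02). The value of the listed windows rested on the window size. With windows of 1 bin it was 1.39 in WT (0.777 to 2.30) and 0.678 in the KO-labelled matrix (0.208 to 1.63), so that the direction between the matrices turned. The change relative to all gene starts was then -0.75 (-2.26 to 0.77), from 18 and 5 read pairs. Without correction, where all gene starts of chromosome 6 stood at 1.71 in WT and 1.49 in the KO-labelled matrix, the listed windows stood at 1.64 and 3.28, and the change was 1.19 (0.45 to 1.92). The highest window in the KO-labelled matrix was at Wnt5b, a signalling ligand gene, at 3.86 (0.999 to 10.2, 4 read pairs), which had 1.15 in WT (3 read pairs). Wnt2 had 2.52 and 0.521, and Lbx2 and Tlx2, homeobox genes that share 1 window, 2.32 and 1.40, from 5 read pairs and 4. Gata2, a blood stem cell factor gene, had 1.87 in the KO-labelled matrix and 0.632 in WT, and Dlx5 and Dlx6 0.911 and 0.346. Vax2, an eye homeobox gene, went the other way, with 0.982 (2 read pairs) in the KO-labelled matrix and 1.60 (6 read pairs) in WT, and Emx1, a forebrain homeobox gene, had 1.47 and 1.33.

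For Hoxb the listed windows stood at 0.88 in WT and 0.785 in the KO-labelled matrix, against 0.851 and 0.675 at all gene starts, a change relative to them of 0.17 (-0.57 to 0.91), and with windows of 1 bin that change was 0.70 (-0.55 to 1.94). Without correction the listed windows of Hoxb stood at 1.18 and 1.21, against 1.03 and 0.853 at all gene starts. Meis1, whose product is a cofactor of Hox proteins, had 1.35 and 2.73 from 2 read pairs in each matrix, and Sox9 had 0.551 and 0.376. For Hoxc the values were 1.27 and 1.04, against 1.07 and 1.03. Without correction they were 1.96 and 1.88, against 1.69 and 1.59, and beyond 5 Mb 1.36 (16 read pairs) and 0.532 (3 read pairs), against 1.16 and 1.15. The best-covered window was that of Wnt1 and Wnt10b, at 1.17 in WT (15 read pairs) and 1.57 in the KO-labelled matrix (12 read pairs). Osr2, a zinc finger gene, had 2.07 and 3.90, from 3 read pairs in each matrix. Trps1, Sox10, Wnt7b and Zfpm2 had 0 read pairs with Hoxc in the KO-labelled matrix, which for each allows up to 3 (a 1-sided 95% limit).

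The windows that each cluster met most in WT, among far windows with at least 10 read pairs, were chosen by their WT value, which is therefore only a description. For Hoxa the first was 65.9 Mb away at Csgalnact2 and Ret, a growth factor receptor gene (chr6:118080001-118200000), at 4.33 with 10 read pairs; the KO-labelled matrix had 0 there. The next was at Mkln1, at 3.17 in WT and 0.905 in the KO-labelled matrix, and the third, at 3.15 and 1.86, held no protein-coding gene. For Hoxb it was the window of Slc47a1 and Rnf112 (3.02, 10 read pairs, and 0 in the KO-labelled matrix), followed by that of Bptf, a chromatin remodelling gene (2.88 and 1.50), and that of St6galnac1, Mxra7, Jmjd6 and Srsf2 (2.52 and 2.13). For Hoxc it was the window of Ttll8, Mlc1 and Mov10l1, 13.9 Mb away, at 3.60 in WT (1.99 to 5.99, 15 read pairs) and 2.47 in the KO-labelled matrix (0.771 to 5.87, 5 read pairs). The remaining Hoxc windows, at Klhl38 and Anxa13 and at Dennd3, had 3.34 and 3.06 in WT and 1.34 and 1.22 in the KO-labelled matrix. Over all windows ranked, the median in the KO-labelled matrix was 0.584 for Hoxa, 0.478 for Hoxb and 0.793 for Hoxc. Apart from the windows with 0, those named held 2 to 5 read pairs each in that matrix. They lay between its 76.4th and 97.9th percentiles of ranked windows, and the windows with 0 at the 2.99th (Hoxa) and 7.37th (Hoxb). Setting aside the windows with 0 favours high percentiles, so that the first range does not measure how alike the matrices are.

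**Figure D4:**
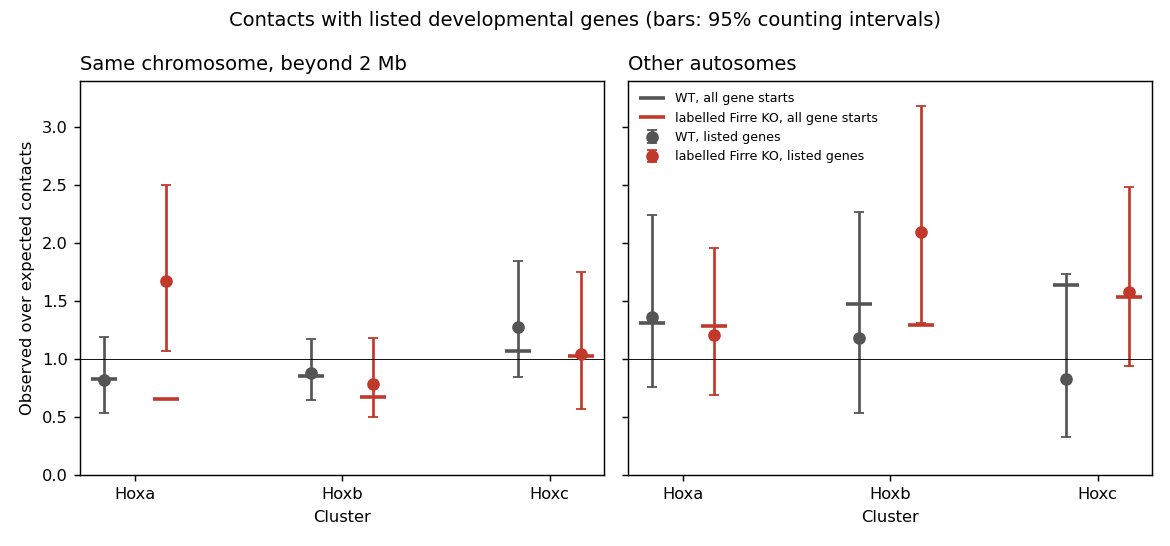
Observed over expected contacts (y axis) of each cluster with windows of 3 bins at listed developmental genes (points, bars are 95% counting intervals) and at all protein-coding gene starts (dashes), on the same chromosome beyond 2 Mb (left) and on other autosomes (right), in WT (grey) and the KO-labelled matrix (red). At Hoxa on the left the KO-labelled point and dash stand at 1.68 and 0.653; with windows of 1 bin, not drawn, they were 0.678 and 0.681.

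Contacts between the clusters, which lie on different chromosomes, were too rare to compare between the matrices. Hoxa and Hoxb shared 1 read pair in WT, where the mean of the chromosome pair gives 0.148, and 2 in the KO-labelled matrix, where it gives 0.224. Hoxa and Hoxc shared 1 and 0 (means 0.0942 and 0.149), and Hoxb and Hoxc 0 and 1 (0.188 and 0.261). Together the 3 pairs of clusters shared 2 read pairs in WT (0.242 to 7.22, exact Poisson interval) where 0.431 would be the mean, and 3 in the KO-labelled matrix (0.619 to 8.77) where 0.634 would be. On corrected signals this was 3.04 times expectation in WT (0.326 to 11.5) and 2.79 times in the KO-labelled matrix (0.484 to 8.77), and both intervals included 1. With each span widened by 1 bin on both sides the value was 2.19 in WT (0.427 to 6.54, 3 read pairs) and 3.90 in the KO-labelled matrix (1.69 to 7.66, 9 read pairs), where the second interval lay above 1. Without correction it was 1.95 in WT (0.236 to 7.05) and 2.14 in the KO-labelled matrix (0.441 to 6.24). Among all placements of windows of these sizes on the same chromosomes, as many read pairs as Hoxa and Hoxb shared were held by 12.9% in WT and 2.95% in the KO-labelled matrix, as many as Hoxa and Hoxc by 8.70% in WT, and as many as Hoxb and Hoxc by 20.6% in the KO-labelled matrix. With Hoxd the 3 clusters shared 2 read pairs in WT, where 0.325 would be the mean, and 3 in the KO-labelled matrix, where 0.545 would be. On corrected signals this was 4.46 times expectation in WT (0.502 to 16.5) and 2.84 times in the KO-labelled matrix (0.581 to 8.32).

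Contacts of the 3 clusters with the listed genes on other autosomes, a comparison added after the data were seen, gave 34 and 64 read pairs. They stood at 1.11 in WT (0.734 to 1.60, 34 read pairs), against 1.49 at all gene starts, and at 1.66 in the KO-labelled matrix (1.25 to 2.16, 64 read pairs), against 1.37. On read pairs without correction the values were 0.964 against 1.12 in WT and 1.30 against 1.12 in the KO-labelled matrix. For Hoxb the value was 2.09 in the KO-labelled matrix (1.31 to 3.18, 25 read pairs), against 1.30 at all gene starts, and 1.18 in WT (0.533 to 2.27, 10 read pairs). Hoxa had 1.36 in WT and 1.21 in the KO-labelled matrix, and Hoxc 0.827 and 1.58. The intervals of the matrices overlapped for each cluster. Of the clusters' own read pairs, 13.98% to 22.1% joined other chromosomes in WT and 31.9% to 44.4% in the KO-labelled matrix, and the part of this share in these values was not tested.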

How the data were processed

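Hi-C libraries (HindIII, in situ ligation) of 4 samples were processed by the authors with HiC-Pro 2.7.8 on mm9, per the labels, pooled into 1 matrix per group and deposited as iteratively corrected signal of 40 kb bin pairs. Whole read pairs were recovered from this signal, all values falling within 0.05 of a whole number. Observed over expected values used the mean of kept bin pairs at the same distance on the same chromosome. The insulation score followed the settings of the study (480 kb square, 320 kb delta span, 160 kb smoothing, interquartile mean, strength above 0); its intervals use the plain mean of the square. Counting intervals (95%) used the gamma method for weighted Poisson sums, or effective counts for log2 ratios; PCR copies are not independent molecules, so these cover counting error only. Where a rule called for random bin sets, every autosomal window of the same size was used instead. The members and lists were chosen with earlier results of these data known, and flank contacts by distance, contacts of listed genes between chromosomes and the looser motif were added after the data were seen. The named genes were the members, neighbours holding a boundary within 1 Mb, the listed genes and the top 3 far windows of each cluster; Skap1 and Cbx1 were named outside this rule. Genes came from GENCODE for the mm9 reference, whose 19 autosomes have the lengths of the bins; it marks no repeats, so repeat content was not computed. Code (Python 3.11.15, numpy 2.4.6, scipy 1.17.1) was tested on simulated data.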

Additional observations from a re-analysis of the deposited data

How the results depend on the processing

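No paired analysis was possible because the libraries of each group were pooled in 1 matrix, which carries no replicate number; leaving out a replicate was not possible for the same reason. Of 88 alternative values for 38 results, 59 fell inside the interval around the original value. Some of these could not move: all listed genes of Hoxa and Hoxb lie beyond 5 Mb, so that limit left their values unchanged. The values at all gene starts did move with that limit. Relative to them the change between the matrices was then 1.21 for Hoxa (0.40 to 2.02) and 0.30 for all 3 clusters (-0.21 to 0.82). The interval around an original value is the range over windows for the compartment component, and counting error otherwise. The cause of the other 29 shifts was not tested. Squares of 240 kb gave a Hoxa lowest-score difference of -0.21, whose interval excluded 0, and squares of 960 kb 0.025, where Hoxc gave -0.82; the plain mean of the square gave 0.37 for Hoxb. With 500 kb flanks the step in flank preference was 3.99 for Hoxa in the KO-labelled matrix and 2.89 for Hoxb in WT. The share beyond 5 Mb, a narrower class, was 23.9% in WT and 16.5% in the KO-labelled matrix for Hoxa, 20.6% and 14.5% for Hoxb, and 21.4% and 22.1% for Hoxc. Without correction the share beyond 2 Mb was 25.2% and 17.5% for Hoxa and 22.8% and 22.7% for Hoxc. At listed genes windows of 1 bin gave Hoxa 1.39 in WT and 0.678 in the KO-labelled matrix, which turned the direction of its change between the matrices from 1.38 to -0.75 (log2, relative to all gene starts). For all 3 clusters together windows of 1 bin gave 1.07 and 0.899. Without correction Hoxa gave 1.64 and 3.28, Hoxb 1.18 and 1.21, Hoxc 1.96 and 1.88, and all 3 together 1.44 and 1.84, where all gene starts gave 1.37 and 1.20; beyond 5 Mb Hoxc gave 0.532 in the KO-labelled matrix. In 400 kb windows the Hoxc compartment component was 1.31 and 0.92. Depth limits single windows, most of which held under 10 read pairs, and contacts between chromosomes.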
